A study of Homo sapiens with 8 samples.

Results

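The genes described here build, cut and cap actin filaments: the cytoplasmic actins, the Arp2/3 complex and its WAVE and WASP activators, formins, Ena/VASP proteins and cortactin, cofilins and their slingshot phosphatases, profilins, CAP1, twinfilins, capping protein and coronins. They were chosen by name from a list of 49 symbols matched to Ensembl identifiers, and all 49 were among the 13546 genes of the count table. RNA came from tumours that grew in nude mice after injection of MDA-MB-231, a human cell line of triple-negative breast cancer (without oestrogen and progesterone receptors and HER2 amplification). The cells were CDK4KO, labelled as a knockout of the cyclin D-dependent kinase CDK4 (4 tumour libraries), or CDK4WT, with intact CDK4 (4 tumour libraries). The labels do not say whether the knockout is a single clone, how CDK4 was disrupted, or whether each tumour came from a separate mouse. The p-values therefore describe spread among libraries, part of which may be technical. The series title links CDK4 to the cytoskeleton and to actomyosin contractility, and the comparison of genotypes asks which actin assembly genes differ between such tumours.

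Actin filaments grow from a nucleus of monomers. The Arp2/3 complex, switched on by WAVE or WASP proteins, starts branches on the sides of existing filaments, while formins start and extend unbranched ones. Profilin delivers monomers, Ena/VASP proteins keep growing ends open, capping protein closes them, and cofilin severs old filaments so that monomers are recycled. In motile cancer cells such as MDA-MB-231 this cycle drives lamellipodia and invasive protrusions.

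Libraries held 27840883 to 33617977 counts. The mRNA of CDK4 itself showed no loss: it stood at 111 to 134 CPM (counts scaled to a common library total) in libraries labelled CDK4KO and 107 to 116 CPM in those labelled CDK4WT. Counts over the whole gene do not show whether its protein is lost, and the genotypes are given as labelled. VIM, the mesenchymal filament protein that marks this line, had 7807 to 11085 CPM in CDK4KO and 8926 to 11510 CPM in CDK4WT. Mean correlations to the own group were lowest in CDK4KO replicates 1 and 4, at 0.985 and 0.986, against 0.988 and 0.989 in CDK4KO replicates 2 and 3. The CDK4WT libraries had 0.992 to 0.995, so every CDK4KO library lay below every CDK4WT library. Genes listed as markers of host cell types were also counted. Of 10 leukocyte markers 7 were in the table, and their sum was 56.9 to 64.9 CPM in CDK4KO and 54.0 to 85.5 CPM in CDK4WT. Of 9 fibroblast and pericyte markers 6 were in the table, at 689 to 1189 CPM in CDK4KO and 784 to 1204 CPM in CDK4WT, most of it from COL1A1. Of 6 endothelial markers 4 were in the table, at 179.6 to 184 CPM in CDK4KO and 146 to 169.9 CPM in CDK4WT, most of it from ESAM. Of 13 muscle markers 5 were in the table, at 32.0 to 62.0 CPM in CDK4KO and 39.5 to 57.2 CPM in CDK4WT, with ACTA2 as the largest part. This sum hides opposite directions. The log2 fold changes, CDK4KO minus CDK4WT, were 0.38 for ACTA2 and 0.11 for ACTG2, but -1.21 for ACTA1, -1.33 for DES and -0.28 for MYH11. Of 4 adipocyte markers 2 were in the table, at 2.53 to 3.64 CPM in CDK4KO and 2.95 to 9.65 CPM in CDK4WT. In bulk tumour RNA, fewer cells of a type and less RNA per cell cannot be told apart. The reads were counted on the human genome. How mouse reads were treated is not stated, and their part in these counts was not tested.

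The actin assembly genes stood at nearly the same level in both genotypes. Together the 49 genes took 1.58% ± 0.0228 of the scaled counts in CDK4KO and 1.586% ± 0.0429 in CDK4WT (SD, n = 4 each). None passed the test over all genes (edgeR quasi-likelihood test, Benjamini-Hochberg adjusted p under 0.05), where 0.0591% of all genes passed (0.0443% higher and 0.0148% lower in CDK4KO). At an unadjusted p under 0.05 there were 2 of 49, against 13.0% of all genes (6.64% higher and 6.33% lower in CDK4KO). These were FMNL3, a formin that was higher in CDK4KO, and WASF3, a WAVE protein that was lower. With DESeq2, where 2.33% of all genes passed, FMNL3 was the only member past an adjusted p of 0.05. With limma voom none passed, where 2.1% of all genes did.

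The log2 fold changes, CDK4KO minus CDK4WT, were small. Their median was 0.02 over the 49 members, 30 positive (61.2%) and 19 negative, and 0.004 over all genes, 51.2% of them positive. Changes of over 0.2 in either direction were seen in 3 members (ARPC1B, FMNL3 and WASF3) and in 20.7% of all genes. The median size without its sign was 0.04 in the members and 0.09 over all genes. The members are also better counted, with a median of 6.95 log2 CPM against 4.90 over all genes. Their median coefficient of variation over the 8 libraries was 5.99%, against 9.85% over all genes. An interval of 95% for the change, not adjusted for the number of genes, lay inside 1.5-fold in either direction for 48 of 49 members and for 83.1% of all genes. ARPC1B, the lowest member by level per length, was the exception. Inside 1.25-fold lay the intervals of 39 of 49 members and of 52.6% of all genes.

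Summed by role, the levels per length differed far more between roles than between genotypes. The 2 actins summed to 2223 to 2258 CPM per kilobase in CDK4KO and 2154 to 2347 in CDK4WT. Profilins, CAP1 and twinfilins came next, at 545 to 586 CPM per kilobase in CDK4KO and 578 to 627 in CDK4WT. The Arp2/3 complex had 285 to 293 CPM per kilobase in CDK4KO and 290.5 to 306 in CDK4WT. These 3 sums overlapped between genotypes, and their CDK4KO means lay below those of CDK4WT. The formins had 143 to 151 CPM per kilobase in CDK4KO and 135 to 144 in CDK4WT, which also overlapped. Ena/VASP genes and cortactin together had 90.8 to 94.5 CPM per kilobase in CDK4KO and 85.9 to 89.9 in CDK4WT. Theirs was the only one of the 9 sums without overlap, and VASP and CTTN make up most of it. No test was made of a sum.

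**Figure D1:**
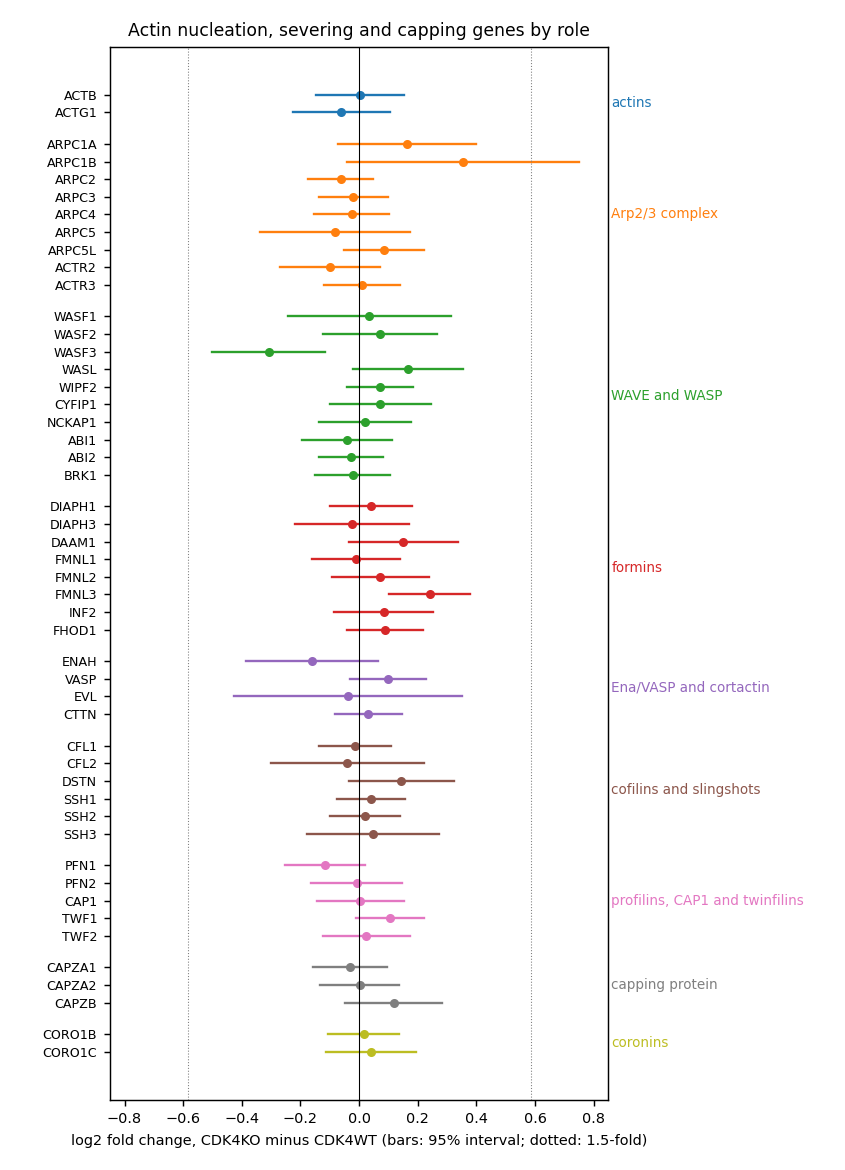
Log2 fold change of each of the 49 genes, CDK4KO minus CDK4WT, on the horizontal axis, grouped by role; points are edgeR estimates, bars 95% intervals and dotted lines 1.5-fold changes. The bars of FMNL3 and WASF3 do not reach 0, and that of ARPC1B is the widest and the only one that crosses a dotted line.

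The cytoplasmic actins ACTB and ACTG1, which form the filaments themselves, were the most abundant members. ACTB (ENSG00000075624) had 4859, 4849, 5075 and 5081 CPM in CDK4KO replicates 1 to 4, and 4686, 5302, 4964 and 4868 CPM in CDK4WT replicates 1 to 4. The genotypes overlapped, with a log2 fold change of 0.003 ± 0.07 (SE; edgeR adjusted p = 0.990). ACTG1 (ENSG00000184009) had 2625, 2531, 2404 and 2331 CPM in CDK4KO, and 2462, 2515, 2476 and 2866 CPM in CDK4WT, where replicate 4 was the highest of the 8 libraries. Its log2 fold change was -0.06 ± 0.07 (edgeR adjusted p = 0.772). The annotation names 10 pseudogenes of ACTB and 20 of ACTG1, and the transcripts of these actins share runs of up to 59 identical bases. A read longer than that differs between the transcripts of these actins. How reads with several matches were counted is not stated, and their part in both levels was not tested.

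Of the 44 members with a matched promoter, ACTG1 alone had a CArG box in the 250 bases before its RefSeq start (GRCh38.p14). The CArG box is the binding motif of serum response factor, searched here only as CC, a run of A and T, and GG. ACTB had no matched promoter and was not searched. Serum response factor drives actin genes when monomers are used up, which is why the box is shown. It lies 94 to 85 bases before the start, on the minus strand of chr17:81512874-81512903, with the box in capitals.
ACTG1: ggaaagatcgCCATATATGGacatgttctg
Promoters were matched for 44 of the 49 members (not for ACTB, ARPC1B, WASF2, CTTN and PFN2). The box, searched on both strands, was in 1 of these 44 (2.27%) and in 162 of 10667 genes of the table with a matched promoter (1.52%). GGGCGG, the core of the GC box of Sp1, was on either strand in 41 of the 44 (93.2%) and in 74.2% of those genes. A motif was counted if any matched promoter of a gene held it. With the promoter richest in G and C taken for each gene, the median was 73.4% G and C in the members, against 67.2% in those genes. Genes with more annotated promoters can score higher on these measures.

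Among the 9 genes of the Arp2/3 complex, the branching nucleator, none had an unadjusted p under 0.05, and 4 log2 fold changes were positive and 5 negative. ACTR2, which encodes the actin-related subunit Arp2, was the highest per kilobase of exon union, at 89.8 ± 8.99 CPM per kilobase in CDK4KO and 96.1 ± 3.90 in CDK4WT (SD, n = 4 each). Its libraries had 401, 423, 403 and 334 CPM in CDK4KO and 409, 423, 439 and 400.3 CPM in CDK4WT. CDK4KO replicate 4 lay below the other 7 libraries, which spanned 400.3 to 439 CPM, and the log2 fold change of -0.10 was -0.03 without it. ARPC3 and ARPC2, core subunits, followed at 68.3 and 40.6 CPM per kilobase over the 8 libraries. ACTR3, which encodes Arp3, and ARPC4 stood at 22.6 and 21.8 CPM per kilobase and ARPC5 and ARPC5L at 18.9 and 18.4, and within each of these pairs the difference was under the SD over the 8 libraries. Levels per kilobase depend on the annotated length: with the longest transcript in place of the union of exons, 41 of the 49 levels moved by more than their SD, while ACTB, ACTG1, PFN1 and CFL1 remained the top 4 and ARPC1B the lowest. The order within the complex turned over, with ARPC3 at 188, ARPC2 at 119.6 and ACTR2 at 104.6 CPM per kilobase of longest transcript.

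ARPC1A and ARPC1B, the alternative forms of the WD-repeat subunit, were the lowest of the complex, at 8.64 and 1.03 CPM per kilobase. In ARPC1A 1198 of 2053 exon bases, and in ARPC1B 1292 of 3988, overlap the gene AC004922.1 on the same strand. No entry for that gene was found in the table of counts. How reads in exons of more than 1 gene were counted is not stated, so the levels of both are uncertain, and the part of the overlap in them was not tested. ARPC1B had the largest positive log2 fold change of the members, 0.35 ± 0.18 (edgeR adjusted p = 0.434). It had 3.86, 3.49, 5.79 and 5.32 CPM in CDK4KO and 3.52, 3.86, 3.91 and 3.12 CPM in CDK4WT. CDK4KO replicates 3 and 4 were above all CDK4WT libraries, and CDK4KO replicates 1 and 2 lay among them; without replicate 3 the log2 fold change was 0.23.

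ARPC5, the subunit that has ARPC5L as its alternative form, split the CDK4KO libraries. It had 224, 174, 156 and 226 CPM in CDK4KO replicates 1 to 4, and 214, 213, 214 and 186 CPM in CDK4WT. CDK4KO replicates 2 and 3 were below all CDK4WT libraries and replicates 1 and 4 above them. Its log2 fold change was -0.08 ± 0.12 (edgeR adjusted p = 0.806). Leaving out CDK4KO replicates 1 and 4, the libraries above CDK4WT, gave -0.32, a sign that follows from that choice. ARPC5L had 65.4 to 72.4 CPM in CDK4KO and 61.0 to 69.98 CPM in CDK4WT. The remaining subunits, ARPC2, ARPC3, ARPC4 and ACTR3, had log2 fold changes of -0.06, -0.02, -0.02 and 0.01. ARPC2 had 254 to 264 CPM in CDK4KO and 264 to 279 CPM in CDK4WT, and CDK4KO replicate 2 alone reached into the CDK4WT range.

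**Figure D2:**
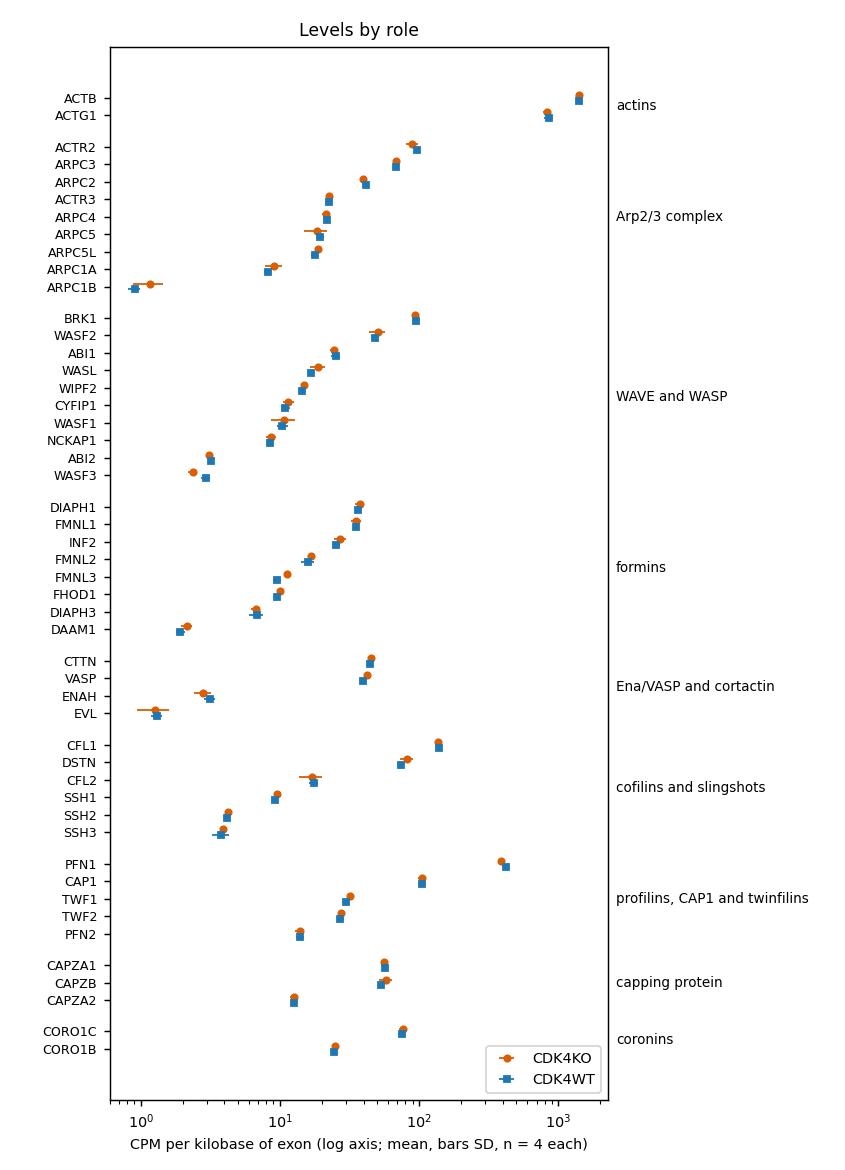
Level of each gene as CPM per kilobase of exon on a log axis, grouped by role; points are means of CDK4KO (circles) and CDK4WT (squares) and bars SDs, n = 4 each. ACTB, ACTG1, PFN1 and CFL1 lie highest, ARPC1B and EVL lowest, and both genotypes lie close together.

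In the WAVE and WASP group, which switches on the Arp2/3 complex, WASF3 had the most negative log2 fold change of all 49 members. WASF3 (ENSG00000132970, chromosome 13, 26557703 to 26688948, hg38), 1 of 3 WAVE proteins measured, had 10.98, 12.5, 13.1 and 12.3 CPM in CDK4KO. It had 16.7, 14.8, 14.4 and 14.6 CPM in CDK4WT. Every CDK4KO library was below every CDK4WT library, as in 3.81% of all genes. The log2 fold change was -0.31 ± 0.09 (edgeR unadjusted p = 0.00491, adjusted p = 0.192), with an unadjusted 95% interval of -0.50 to -0.12. It did not pass with DESeq2 (adjusted p = 0.0737). Of the 5162 exon bases 1976 overlap the gene AL159978.1 on the other strand, and whether the counting used strand is not stated.

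WASF3 was the least abundant WAVE gene. Its level was 2.36 ± 0.174 CPM per kilobase in CDK4KO and 2.93 ± 0.203 in CDK4WT (SD, n = 4 each). WASF2 stood at 50.4 ± 6.95 CPM per kilobase in CDK4KO and 48.0 ± 1.77 in CDK4WT. WASF1, best known from the brain, stood at 10.7 ± 2.10 CPM per kilobase in CDK4KO and 10.4 ± 0.951 in CDK4WT. WASF3 was thus 4.56% ± 0.828 of the per-kilobase sum of WASF3 and WASF2 in CDK4KO and 5.76% ± 0.426 in CDK4WT. WASF2, the widely expressed form, had 344, 275, 256 and 269.6 CPM in CDK4KO and 273, 274, 283 and 259 CPM in CDK4WT. CDK4KO replicate 1 was the highest of the 8 libraries and the other 3 overlapped CDK4WT.

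The other subunits of the WAVE complex did not differ beyond the spread of the libraries. BRK1, its smallest subunit, was the highest of the group per kilobase. It had 122, 111, 113 and 116 CPM in CDK4KO and 110.0, 116, 118 and 125 CPM in CDK4WT. CYFIP1, which binds RAC1, its partner NCKAP1, and the adaptors ABI1 and ABI2 had log2 fold changes of -0.04 to 0.07. NCKAP1 had 172 to 213 CPM in CDK4KO and 179 to 201 CPM in CDK4WT, CYFIP1 105 to 128 CPM in CDK4KO and 101 to 121 CPM in CDK4WT. Both had their lowest CDK4KO value in replicate 4, and so had ABI1 and WASF1. ABI2, with 8893 of 23331 exon bases overlapping other genes on the opposite strand, had 70.3 to 74.3 CPM in CDK4KO and 71.96 to 75.97 CPM in CDK4WT. WASL, or N-WASP, the target of CDC42, had 77.7, 85.3, 98.0 and 73.4 CPM in CDK4KO and 75.0, 71.0, 73.3 and 78.5 CPM in CDK4WT. CDK4KO replicates 2 and 3 were above all CDK4WT libraries. Its log2 fold change was 0.17 ± 0.09 (edgeR adjusted p = 0.438). Leaving out CDK4KO replicates 1 and 4, its lowest CDK4KO values, gave 0.30. Leaving out CDK4KO replicate 3, its highest, gave 0.08. WIPF2, which binds and stabilises WASP proteins, had 120.1 to 125.5 CPM in CDK4KO and 112 to 122 CPM in CDK4WT, where replicate 4 alone overlapped.

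Of the 8 formins, which nucleate and extend unbranched filaments, 6 had positive log2 fold changes, with a group median of 0.08. FMNL3 (ENSG00000161791, chromosome 12, 49636499 to 49708165, hg38), a formin of filopodia and cell protrusions, had the smallest p of all members. It had 144, 149, 162 and 153 CPM in CDK4KO and 119, 138, 131 and 127 CPM in CDK4WT. Every CDK4KO library was above every CDK4WT library, as in 3.87% of all genes. The log2 fold change was 0.24 ± 0.06, or 1.18-fold (edgeR unadjusted p = 0.0027, adjusted p = 0.164; DESeq2 adjusted p = 0.0265), with an unadjusted 95% interval of 0.10 to 0.38. Over 18 alternative settings its log2 fold change stayed between 0.20 and 0.28, and the adjusted p between 0.0265 and 0.395. Of its 13424 exon bases 2643 overlap PRPF40B on the other strand, and PRPF40B had a log2 fold change of -0.23 ± 0.10 (edgeR adjusted p = 0.340). FMNL3 is also known from endothelial cells. The summed endothelial markers above likewise did not overlap between genotypes and were higher in CDK4KO, but most of that sum was ESAM. Of these markers ESAM alone did not overlap, with a log2 fold change of 0.19, while PECAM1 (0.34), TEK (0.21) and KDR (0.04) overlapped. CDH5 and EMCN, the other endothelial markers looked for, were not in the table of counts. The part of endothelial cells in the FMNL3 difference was not tested.

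The related FMNL2 stood at 0.07 ± 0.07 and FMNL1 at -0.01 ± 0.07 on the log2 scale (edgeR adjusted p = 0.719 and 0.969). FMNL1, a formin best known from blood cells, was the more abundant of the 3, at 35.2 ± 2.90 CPM per kilobase in CDK4KO and 35.5 ± 1.42 in CDK4WT (SD, n = 4 each). The 7 leukocyte markers measured, summed above, had 54.0 to 85.5 CPM over the 8 libraries, while FMNL1 had 249 to 295 CPM in CDK4KO and 255 to 278 CPM in CDK4WT; the part of leukocytes in its level was not tested. DIAPH1, an effector of RHOA, was the highest formin per kilobase of exon union, by less than the SD over the 8 libraries (36.9 CPM, against 35.3 for FMNL1), and second to FMNL1 per kilobase of longest transcript (46.6 against 54.4 CPM). It had 259, 285, 297 and 262 CPM in CDK4KO and 257, 277, 278 and 261 CPM in CDK4WT, and the genotypes overlapped. INF2, which also severs filaments, and FHOD1, a formin of stress fibres, had log2 fold changes of 0.08 and 0.09, DAAM1, a formin of Wnt signalling, 0.15 (0.09 without CDK4KO replicate 2), and DIAPH3 -0.02, none with an unadjusted p under 0.05. INF2 was nearly as abundant as DIAPH1 by counts, with 230.2 to 286 CPM in CDK4KO and 229.6 to 259.7 CPM in CDK4WT. DAAM1 was the lowest formin, with 21.2 to 25.8 CPM in CDK4KO and 18.8 to 22.3 CPM in CDK4WT.

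**Figure D3:**
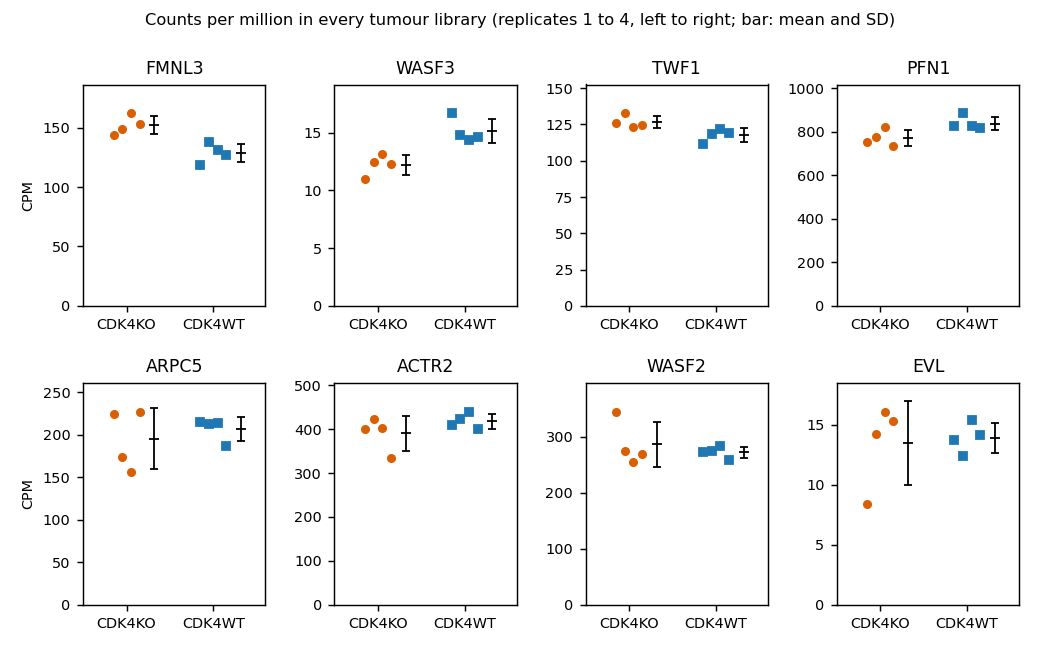
CPM of 8 genes in every tumour library, CDK4KO left (circles) and CDK4WT right (squares), replicates 1 to 4 from left to right, with mean and SD (n = 4 each); the vertical axes start at 0. FMNL3, WASF3 and TWF1 do not overlap between genotypes, while WASF2 and EVL are set apart by CDK4KO replicate 1 and ACTR2 by CDK4KO replicate 4.

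Ena/VASP proteins, which protect growing ends from capping, and cortactin, which stabilises Arp2/3 branches, had no member with an unadjusted p under 0.05. VASP, the most abundant Ena/VASP gene, had 163, 154, 151 and 147 CPM in CDK4KO and 135, 152, 146 and 139 CPM in CDK4WT. CDK4KO replicates 1 and 2 were above all CDK4WT libraries, and the log2 fold change was 0.10 ± 0.06 (edgeR adjusted p = 0.515). ENAH, which encodes Mena, had 35.1, 48.5, 40.5 and 44.3 CPM in CDK4KO and 52.4, 44.0, 48.8 and 43.1 CPM in CDK4WT, at -0.16 ± 0.10 (edgeR adjusted p = 0.545), or -0.085 without CDK4KO replicate 1 and -0.11 without CDK4WT replicate 1. EVL, the third family member, was low, with 8.34, 14.3, 16.0 and 15.3 CPM in CDK4KO and 13.7, 12.4, 15.4 and 14.1 CPM in CDK4WT. CDK4KO replicate 1 was below the other 7 libraries, and the log2 fold change of -0.04 became 0.13 without it. CTTN had 320.4, 306, 316 and 317 CPM in CDK4KO and 303, 303, 306 and 320.3 CPM in CDK4WT, a log2 fold change of 0.03 ± 0.05.

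Filament severing depends on the cofilins and on the slingshot phosphatases that activate them. CFL1, the main cofilin of non-muscle cells, varied least of all 49 members, with a coefficient of variation of 2.04%. It had 821, 815, 816 and 787 CPM in CDK4KO and 835, 815, 828 and 792 CPM in CDK4WT, a log2 fold change of -0.01 ± 0.06 (edgeR adjusted p = 0.944). DSTN, or ADF, had 359.8, 316, 286 and 294 CPM in CDK4KO and 260.1, 297, 279 and 299 CPM in CDK4WT. CDK4KO replicates 1 and 2 were above all CDK4WT libraries, and the log2 fold change was 0.14 ± 0.08 (edgeR adjusted p = 0.487), or 0.07 without CDK4KO replicate 1. CFL2, the muscle form, had 98.0 to 154 CPM in CDK4KO and 115 to 136 CPM in CDK4WT, a wider spread in CDK4KO. The annotation names 8 pseudogenes of CFL1 and 4 of DSTN. SSH1, SSH2 and SSH3 had log2 fold changes of 0.04, 0.02 and 0.05, and SSH1 was the highest of them at 9.39 CPM per kilobase over the 8 libraries, against 4.20 for SSH2 and 3.83 for SSH3.

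Among the genes that handle monomers, PFN1, the main profilin, had 753, 777, 823 and 737 CPM in CDK4KO and 825, 885, 825 and 817 CPM in CDK4WT. CDK4KO replicate 3 overlapped CDK4WT, the other 3 CDK4KO libraries were below it, and the log2 fold change was -0.12 ± 0.06 (edgeR adjusted p = 0.452). The annotation names 10 pseudogenes of PFN1. TWF1, a twinfilin that binds monomers and filament ends, had 126, 133, 123 and 125 CPM in CDK4KO and 111, 118, 122 and 119 CPM in CDK4WT. Every CDK4KO library was above every CDK4WT library by a narrow gap, and the log2 fold change was 0.10 ± 0.05 (edgeR unadjusted p = 0.0739, adjusted p = 0.434). With FMNL3 and WASF3 it made 3 of 49 genes, or 6.12%, whose genotypes did not overlap, against 7.68% of all genes. PFN2, CAP1, which recycles monomers, and TWF2 had log2 fold changes of -0.01, 0.005 and 0.03. CAP1 had 375 to 425 CPM in CDK4KO and 361 to 414 CPM in CDK4WT. PFN2 stood far below PFN1, at 13.9 against 405 CPM per kilobase over the 8 libraries.

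Capping protein, a dimer of an alpha subunit (CAPZA1 or CAPZA2) and the beta subunit CAPZB, closes growing ends. CAPZB had 214, 181, 169 and 181 CPM in CDK4KO and 166, 178, 178 and 165 CPM in CDK4WT. CDK4KO replicate 1 was the highest, and the log2 fold change was 0.12 ± 0.07 (edgeR adjusted p = 0.545), or 0.04 without it. CAPZA1 had 236, 220.1, 225 and 238 CPM in CDK4KO and 228, 248, 239.6 and 224 CPM in CDK4WT, which overlapped. Per kilobase of exon union CAPZA1 and CAPZB stood at 56.3 and 55.3 CPM over the 8 libraries (76.9 and 86.6 CPM per kilobase of longest transcript), and CAPZA2 stood at 12.6. CAPZA2 had 99.7 to 115 CPM in CDK4KO and 101 to 111 CPM in CDK4WT, with the smallest log2 fold change of the members, 0.002. The coronins, which take Arp2/3 branches apart, were led by CORO1C, with 462, 533, 529 and 496 CPM in CDK4KO and 457, 523, 505 and 480.2 CPM in CDK4WT. CORO1C and CORO1B had log2 fold changes of 0.04 and 0.02, and 1292 exon bases of CORO1B overlap PTPRCAP on the same strand.

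The balance between related genes was compared as the log2 ratio of their counts within each library, which does not depend on scaling or gene length. In 0 of 20 pairs did the genotypes separate, and no pair reached an unadjusted p under 0.05 (exact two-sided permutation test over 70 assignments, smallest possible p = 0.0286). After adjustment over the 20 pairs no p was below 0.643. Even a fully separated pair could not pass alone after this adjustment, so the adjusted values cannot decide about a shift in few pairs. The largest difference was that of WASF3 to WASF2, with log2 ratios of -4.97, -4.47, -4.28 and -4.46 in CDK4KO and -4.03, -4.22, -4.30 and -4.14 in CDK4WT. CDK4KO replicate 3 overlapped CDK4WT replicate 3, and the difference was -0.37 (exact permutation p = 0.0571). CDK4KO replicate 1, where WASF2 was highest, was the lowest of the 8, and without it the difference was -0.23.

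The other pairs differed less between genotypes. ACTB made up 63.1% ± 1.81 of the per-kilobase level of both actins in CDK4KO and 62.0% ± 2.19 in CDK4WT, a log2 ratio difference of 0.06 (exact permutation p = 0.486). FMNL3 relative to FMNL2 differed by 0.16 (exact permutation p = 0.143), with log2 ratios of 0.40, 0.40, 0.61 and 0.50 in CDK4KO and 0.34, 0.47, 0.38 and 0.08 in CDK4WT. ENAH relative to VASP differed by -0.27 (exact permutation p = 0.143), ARPC5 relative to ARPC5L by -0.18 (p = 0.257, exact permutation test) and DSTN relative to CFL1 by 0.15 (p = 0.171, exact permutation test). DSTN made up 37.0% ± 2.20 of its per-kilobase sum with CFL1 in CDK4KO and 34.6% ± 1.93 in CDK4WT. These shares depend on the annotated length, and per kilobase of longest transcript DSTN was at 16.7% ± 1.32 in CDK4KO and 15.3% ± 1.10 in CDK4WT. ARPC1A took 88.8% ± 1.98 of the sum with ARPC1B in CDK4KO and 90.0% ± 1.28 in CDK4WT. That share is uncertain, as exons of both genes overlap AC004922.1 on the same strand. ARPC5 took 49.0% ± 4.12 of the sum with ARPC5L in CDK4KO and 52.2% ± 2.46 in CDK4WT. DIAPH1 took 84.8% ± 0.831 of the sum with DIAPH3 in CDK4KO and 84.2% ± 1.20 in CDK4WT. CAPZA2 made up 18.5% of the alpha subunits in CDK4KO and 18.2% in CDK4WT. ACTR2 relative to ACTR3, subunits of 1 complex, had log2 ratios of 0.58, 0.61, 0.60 and 0.26 in CDK4KO and 0.59, 0.63, 0.60 and 0.68 in CDK4WT, so CDK4KO replicate 4 alone was low. SSH2 relative to SSH1 was the steadiest, between -1.41 and -1.31 in all 8 libraries. Apart from the actins, the transcripts of a pair shared runs of at most 39 identical bases.

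**Figure D4:**
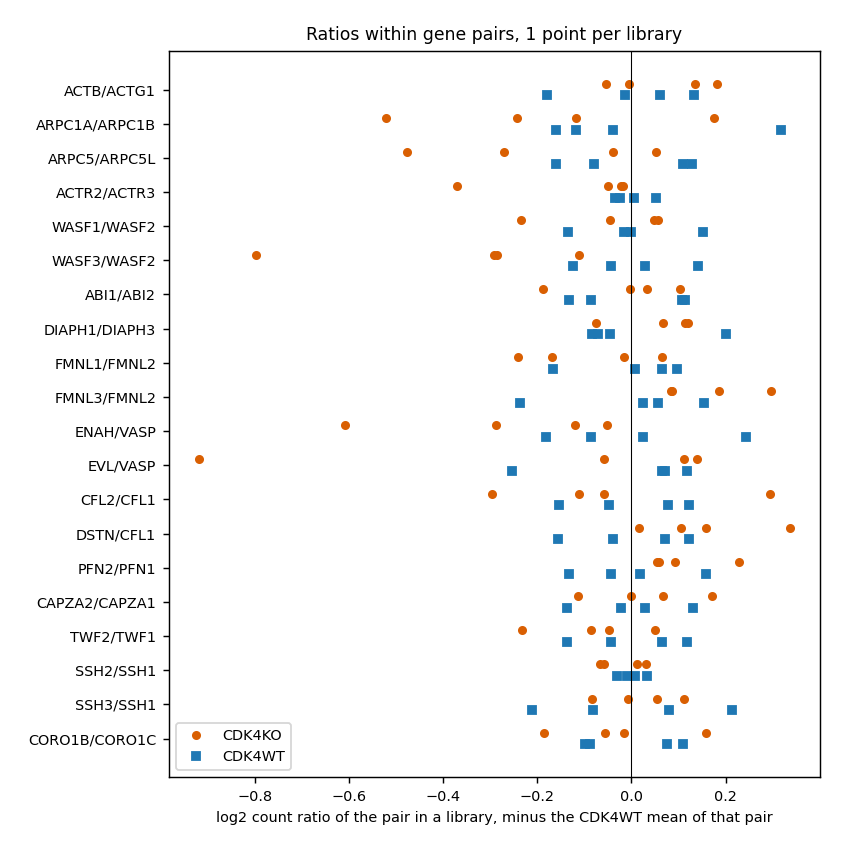
Log2 count ratio of each gene pair in every library, minus the CDK4WT mean of that pair, on the horizontal axis; circles are CDK4KO and squares CDK4WT libraries. In all 20 pairs the genotypes overlap, and the points farthest out, in EVL/VASP and WASF3/WASF2, are CDK4KO replicate 1.

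In 4 further lists of actin control (other nucleators and brakes, monomer binding and severing, upstream GTPases and kinases, bundlers and tropomyosins) 27, 23, 22 and 27 genes were in the table, and none passed edgeR's test over all genes. At an unadjusted p under 0.05 there were 4, 1, 3 and 3, against 13.0% of all genes. The genotypes did not overlap in 0, 1, 3 and 1, against 7.68% of all genes. ABL2, a kinase that phosphorylates cortactin, had 129.6, 140.3, 129 and 133 CPM in CDK4KO and 160.2, 156, 175 and 164 CPM in CDK4WT, without overlap, and a log2 fold change of -0.30 ± 0.06 (edgeR adjusted p = 0.0749). SRC, a kinase upstream of ABL2 and cortactin, stood at 0.34 ± 0.13 and overlapped. JMY, which nucleates actin and activates Arp2/3, had 40.4, 50.9, 51.0 and 41.7 CPM in CDK4KO and 41.5, 38.7, 35.4 and 39.0 CPM in CDK4WT, at 0.25 ± 0.09 (edgeR adjusted p = 0.284). BAIAP2L1, a membrane-bending partner of WAVE and WASP, stood at -0.36 ± 0.13, EPS8L2, a relative of the capping protein EPS8, at -0.15 ± 0.07, and the bundler LCP1, also a leukocyte marker, at -0.41 ± 0.14, none past the test. The kinases LIMK2, which inactivates cofilin, and PAK4, upstream of LIM kinases, were named after their values were seen, as the other 2 without overlap among the upstream genes, with log2 fold changes of -0.21 and 0.09. AVIL, a severing protein of the villin family, and TAGLN2, a filament-stabilising transgelin, did not overlap either, at 0.47 ± 0.10 and -0.41 ± 0.08 (edgeR adjusted p = 0.113 and 0.0769). Exons of AVIL overlap those of other genes, and the part of this overlap in its counts was not tested.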

How the data were processed

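The authors deposited 1 table of raw counts per Ensembl gene for 8 tumour libraries, not normalized. The tools named per the submitters' processing notes are cutadapt for trimming, STAR 2.7.11a as the aligner and featureCounts 2.0.4 as the counter, with hg38 as the build. The sources used here do not state the annotation release, the strand setting or what was done with shared and mouse reads. Every gene of the table exceeds 1 CPM in at least 4 libraries, so lower genes had been removed, and edgeR's filter removed 0 more. CDK4KO columns were matched to replicates 1 to 4 through the library names. Libraries held 27840883 to 33617977 counts.

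The genotype comparison used edgeR 4.0.16 under R 4.3.3 (TMM, filterByExpr, robust quasi-likelihood test, no covariate), with Benjamini-Hochberg adjustment over all 13546 genes. The common biological coefficient of variation was 11.7%. Standard errors are those implied by the F statistic, and 95% intervals use its degrees of freedom. Levels per kilobase divide CPM by the union of exons in GENCODE 29 (hg38), where 13455 genes were found; 13524 identifiers had symbols. Ratios were compared by exact permutation of libraries. The steps were tested on simulated data. Alternatives were DESeq2 1.42.0, limma 3.58.1 (voom with quality weights), other scalings, filters and dispersions, the replicate number as a block, and libraries left out.

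Members and lists were chosen with earlier results of these data known. Beyond the members, the genes named are CDK4, cell type markers, genes whose exons overlap a member, and the 2 with the smallest p of each further list, with LIMK2, PAK4 and ROCK2 named after their values were seen. Members given in every library are the actins, in each role the member with the smallest p and the one highest per kilobase, and further ones chosen after their values were seen (ARPC5, WASF2, WASL, ENAH and EVL).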

Additional observations from a re-analysis of the deposited data

Results flagged for a closer look

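In 5 of the 49 members 1 library of a genotype stood far from the other 3 in CPM. ACTG1 had 2866 CPM in CDK4WT replicate 4, against 2462 to 2515 in the other CDK4WT libraries. ARPC5 had 185.9 CPM there, against 213 to 214. WASF3 had 16.7 CPM in CDK4WT replicate 1, against 14.4 to 14.8. That library raised the CDK4WT mean, while the lack of overlap with CDK4KO does not depend on it. SSH1 had 148 CPM in CDK4KO replicate 3, against 134 to 136. PFN1 had 885 CPM in CDK4WT replicate 2, against 817 to 825. Among the log2 ratios, ACTR2 to ACTR3 had 0.26 (0.255) in CDK4KO replicate 4, against 0.58 to 0.61. DIAPH1 to DIAPH3 had 2.61 in CDK4WT replicate 4, against 2.33 to 2.36 (2.325 to 2.364). EVL to VASP had -3.62 in CDK4WT replicate 2, against -3.31 to -3.25. In all, 8 of 138 groups of 4 were marked, where chance gives about 1 in 20, or 6.9.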

How the results depend on the processing

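Over 18 alternative settings the median log2 fold change of the members stayed between 0.007 and 0.031. No member passed an adjusted p of 0.05 except 1 with DESeq2 (FMNL3). Of 881 member values under alternatives, 818 kept direction and call, and 28 of 49 members kept their sign throughout. Over all genes 8 passed in edgeR, 14 with library size only, 19 at a mean CPM of at least 5 (where ARPC1B drops out), 315 with DESeq2, 285 with limma voom and 447 without CDK4KO replicates 1 and 4. Leaving out 1 library gave 0 to 183 genes, with 183 when CDK4KO replicate 1 was dropped, 17 when CDK4KO replicate 4 was, and 0 or 1 for any other. Of the further actin genes 3 passed with DESeq2 (ABL2, AVIL, TAGLN2), 4 with voom (also JMY), 3 without CDK4KO replicates 1 and 4 (JMY, ROCK2, TAGLN2) and 0 to 2 with 1 library left out (2, ABL2 and TAGLN2, without CDK4KO replicate 1). The labels do not say whether replicate numbers pair the libraries. Deviations of same-numbered libraries had correlations of -0.031, -0.014, 0.003 and 0.194, which cannot exclude a weak shared effect. With the replicate block 13 genes passed and 0 members. Pairs without overlap numbered 1 without CDK4KO replicates 1 and 4 (ARPC5/ARPC5L) and 0 to 1 with 1 library left out (WASF3/WASF2 without CDK4KO or CDK4WT replicate 3, FMNL3/FMNL2 without CDK4WT replicate 2, PFN2/PFN1 without CDK4WT replicate 4). Changes near 0 turned sign, and the cause was not tested. With upper-quartile scaling ACTB was -0.004, CAP1 -0.004 and CAPZA2 -0.006, and at a mean CPM of at least 5 ACTB was -0.001 and CAPZA2 -0.003. With voom ACTR3 was -0.028, WASF1 -0.031, WASF2 -0.011, EVL 0.003, PFN2 0.053 and CAP1 -0.037. Without CDK4KO replicates 1 and 4, WASF1 was -0.04, WASF2 -0.036, DIAPH3 0.021, INF2 -0.034, EVL 0.127, PFN2 0.073, CAP1 -0.023, TWF2 -0.021, CORO1B -0.006, and among log2 ratios WASF1/WASF2 was 0.001, ABI1/ABI2 0.015, EVL/VASP 0.04 and SSH3/SSH1 -0.015. With 1 library left out the ranges that crossed 0 were: ACTB -0.023 to 0.037, ARPC4 -0.051 to 0.009, ARPC5 -0.161 to 0.011, ACTR3 -0.029 to 0.043, WASF1 -0.109 to 0.118, WASF2 -0.03 to 0.123, NCKAP1 -0.022 to 0.078, ABI1 -0.082 to 0.004, BRK1 -0.051 to 0.01, DIAPH3 -0.099 to 0.021, FMNL1 -0.064 to 0.023, EVL -0.132 to 0.132, CFL1 -0.031 to 0.0, CFL2 -0.175 to 0.051. Likewise SSH3 ranged over -0.027 to 0.121, PFN2 -0.053 to 0.031, CAP1 -0.042 to 0.034, TWF2 -0.017 to 0.068, CAPZA2 -0.036 to 0.031, CORO1B -0.005 to 0.041. The log2 ratios did so in WASF1/WASF2 (-0.088 to 0.02), ABI1/ABI2 (-0.058 to 0.045), EVL/VASP (-0.289 to 0.064), CFL2/CFL1 (-0.155 to 0.041), CAPZA2/CAPZA1 (-0.016 to 0.079), SSH3/SSH1 (-0.052 to 0.09) and CORO1B/CORO1C (-0.086 to 0.029). Without crossing 0, single libraries moved further ratios by over 1.5 times: ENAH/VASP was -0.154 and DSTN/CFL1 0.094 without CDK4KO replicate 1, FMNL3/FMNL2 0.085 without CDK4WT replicate 4 and ARPC5/ARPC5L -0.086 without CDK4KO replicate 3. At this depth the lowest count of a member in a library was 90, so counting error limits ARPC1B most.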
